A study of Rattus norvegicus with 72 samples.

Results

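The renin angiotensin system genes described here were 6: Agt, Ace, Agtr1a, Agtr1b, Enpep and Mme. They were chosen by symbol, and all 6 were found among the 32545 genes of the deposited tables. All groups were adult male Sprague-Dawley rats on normal chow, and RNA was taken from the kidney on the left. In the nephrectomy groups the right kidney had been ligated and excised, and in the sham groups only its pedicle was dissected. Glomeruli (the filtering capillary tufts), S1 proximal tubules (the first tubule segment) and whole left kidney were taken 24, 48 or 72 h after surgery, with 4 libraries in each of 18 groups, 72 libraries in all. Segment libraries were NuGEN Ovation RNA-seq V2, read from 1 end, whereas whole kidney libraries were TruSeq Stranded HT and LT and read from both ends. The kits and the kind of sample therefore cannot be told apart between whole kidney and segments, and no test is given between them. Whether libraries of a group are separate animals is not stated, and the p-values hence cover only spread among libraries, some of which may be technical.

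Angiotensinogen, the product of Agt, is the protein from which angiotensin I is cleaved. Angiotensin-converting enzyme (Ace) turns that peptide into angiotensin II, which raises blood pressure and sodium retention through the type 1 receptor. Rats carry a pair of genes for this receptor, Agtr1a and Agtr1b. Enpep encodes aminopeptidase A, which converts angiotensin II to angiotensin III, and Mme encodes neprilysin, a membrane peptidase that degrades angiotensins and natriuretic peptides. In the kidney, angiotensin II acts on vessels, glomeruli and tubules.

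The receptor genes are shown first, since Agtr1b had the highest ratio of glomerular to S1 level among the 6 genes and Agtr1a is its paralog. RefSeq promoter windows of the GRCr8 build were matched for 5 of the 6 genes, Agt being the one without an entry. Each window holds 300 bases, 250 before and 50 after the annotated start, and is printed 5′ to 3′ on the strand of the gene. Agtr1a lies at chr17:34435383-34435682 (minus strand) and Agtr1b at chr2:104849213-104849512 (minus strand). Capitals mark TATAAA and CCAAT or their reverse complements, TTTATA and ATTGG, on either strand.
Agtr1a: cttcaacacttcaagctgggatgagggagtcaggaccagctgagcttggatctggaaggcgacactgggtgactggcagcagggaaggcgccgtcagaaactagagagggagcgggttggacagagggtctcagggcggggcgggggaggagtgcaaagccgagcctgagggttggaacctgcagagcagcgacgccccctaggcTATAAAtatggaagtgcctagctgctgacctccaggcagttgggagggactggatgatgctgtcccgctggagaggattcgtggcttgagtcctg
Agtr1b: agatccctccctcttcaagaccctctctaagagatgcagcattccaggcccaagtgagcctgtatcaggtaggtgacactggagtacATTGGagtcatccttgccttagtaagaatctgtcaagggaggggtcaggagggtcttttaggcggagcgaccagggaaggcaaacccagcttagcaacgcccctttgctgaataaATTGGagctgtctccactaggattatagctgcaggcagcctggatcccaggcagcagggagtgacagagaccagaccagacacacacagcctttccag
The Agtr1a window held TATAAA beginning 45 bases before the start. The Agtr1b window held none, but held CCAAT on the opposite strand in matches beginning 163 and 48 bases before the start. TATAAA occurred in 14.2% and CCAAT in 37.5% of the 33469 windows of that length. In a global alignment with gaps allowed, 166 of the 300 bases were identical between the receptor genes. No other pair of windows was aligned, so this count has no background to be judged by. The Agtr1a window had 60.7% GC and 11 CpG dinucleotides, and the Agtr1b window 53.7% GC and 3 CpG, beside medians of 51.7% GC and 7 CpG over all windows. The remaining windows had 72.3% GC (Ace), 68.7% (Mme) and 47% (Enpep). A match to these letters is a description and not a binding site.

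A single pair of libraries, both sham 24 h and numbered 2, went against its labels. The one labelled glomeruli had 1.46 RPKM of the podocyte gene Nphs1 and 1581 RPKM of the proximal tubule gene Slc34a1, while the one labelled S1 tubules had 262 RPKM and 68.3 RPKM of these genes. Both were left out, and values that include them are named where they change a call. The rest comprised 23 glomerular libraries with 2643258 to 37408599 gene counts, 23 S1 libraries with 7883861 to 87368807 and 24 whole kidney libraries with 10102869 to 55517383. All 6 podocyte markers were detected in every glomerular library. Their summed level was 2211 to 5046 RPKM there and 3.18 to 19.2 RPKM in S1 libraries. The 6 proximal tubule markers summed to 569 to 3669.8 RPKM in S1 libraries and 66.7 to 181 RPKM in glomeruli. In whole kidney, the 24 h libraries numbered 3 and 4 of both surgeries stood apart. Mitochondrial genes took 71 to 80.6% of their counts against 36 to 66.3% in the other 20, and the S1 transporter gene Slc5a2 had 0.112 to 0.524 FPKM against 8.33 to 159 FPKM. For Mme, the fold change at 24 h and the mean over the times are given with and without them, as are counts of all genes called there. Levels and the fold changes of the other genes are given with them only.

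After sham surgery the 6 genes had a different order of levels in each kind of sample. Levels are the authors' RPKM or FPKM, counts set to the library's gene total and to gene length, so that genes can be compared, and are means ± SD over 11 glomerular, 11 S1 and 12 whole kidney libraries. In glomeruli Enpep was highest at 205 ± 74.9 RPKM, before Agtr1b (105 ± 27.8), Agtr1a (75.4 ± 19.1), Mme (33.4 ± 12.6), Ace (3.76 ± 0.895) and Agt (0.474 ± 0.33). Neighbours from Enpep down to Mme overlapped in range. Within each sham library, though, Agtr1b exceeded Agtr1a (at least 1.04 times) and Agtr1a exceeded Mme. Mme lay above Ace and Ace above Agt in range. In S1 tubules Enpep also led, at 32.5 ± 8.66 RPKM, before Agtr1a (13.3 ± 3.76), Mme (2.7 ± 1.57), Ace (0.274 ± 0.173), Agtr1b (0.204 ± 0.121) and Agt (0.161 ± 0.134). Enpep lay above Agtr1a and Agtr1a above Mme in range. Mme overlapped Ace in range but exceeded it within each sham library (at least 1.16 times), and the last 3 overlapped each other in range. In whole kidney Mme led at 152 ± 14.4 FPKM, before Enpep (53.2 ± 14.7), Agtr1a (15.1 ± 6.3), Agt (5.57 ± 2.45), Ace (2.13 ± 1.28) and Agtr1b (1.68 ± 0.621). There Mme exceeded Enpep in every sham library, and each later neighbour overlapped the next in range. Within each sham library, however, Enpep exceeded Agtr1a and Agtr1a exceeded Agt (at least 1.55 times). The lowest values of Mme, Enpep, Agtr1a, Agt and Agtr1b were all in the 24 h library numbered 3, which stood apart. Enpep overlapped Agtr1a only through that library, at 19.2 FPKM of Enpep.

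**Figure D1:**
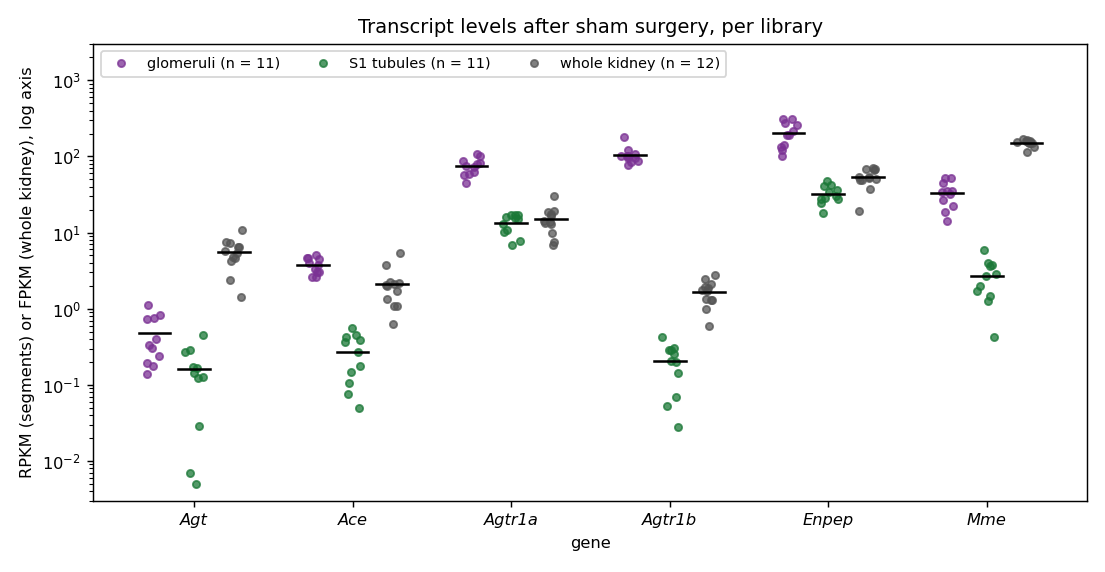
Levels of the 6 genes after sham surgery, one point per library and bars at the mean, on a log axis of RPKM (glomeruli and S1 tubules) or FPKM (whole kidney). A value of 0 is drawn just above the bottom of the axis and is not a measured level there. Agtr1b separates glomeruli (77.6 to 181 RPKM) from S1 tubules (0.0284 to 0.419 RPKM), and Mme is highest in whole kidney (115 to 168 FPKM).

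Agt, the substrate gene, was near the detection limit in both dissected segments. Its read counts were 2 to 36 per sham glomerular library and 0 to 18 per sham S1 library, where 1 library had none, against 73 to 800 in whole kidney. The segments overlapped, with 0.139 to 1.13 RPKM in glomeruli and 0 to 0.448 RPKM in S1 tubules. Agt therefore had too few reads in these segments for small differences to be detectable.

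Ace, the converting enzyme, had 2.6 to 5.14 RPKM in sham glomeruli (median 3.77) and 0.0503 to 0.556 RPKM in sham S1 tubules (median 0.267). No S1 library reached the lowest glomerular one. The whole kidney median of 2.03 FPKM lay in between, while its range of 0.621 to 5.34 FPKM covered that of glomeruli.

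Agtr1a, one of the type 1 receptor genes, was detected in every library. It had 44.6 to 108 RPKM in sham glomeruli (median 74.4), 6.84 to 17.1 RPKM in S1 tubules (median 14.9) and 6.8 to 30.4 FPKM in whole kidney (median 13.9). Glomeruli lay above S1 tubules in all libraries, whereas S1 tubules and whole kidney overlapped. Agtr1b, its paralog, had 77.6 to 181 RPKM in sham glomeruli (median 102) from 1237 to 4402 reads, and 0.0284 to 0.419 RPKM in S1 tubules (median 0.205) from 1 to 32 reads. In whole kidney it had 0.587 to 2.79 FPKM (median 1.75).

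Set against each other within a library, which no scaling between libraries affects, the receptor genes shared glomerular expression and differed in S1 tubules. Agtr1b made up 45.9 to 72% of the summed RPKM of both genes in glomeruli after nephrectomy (median 56.7, n = 12) and 51.1 to 69.6% after sham surgery (median 57.8, n = 11). In S1 tubules it made up 0 to 6.71% after nephrectomy (median 0.848) and 0.19 to 3.71% after sham surgery (median 1.45). In whole kidney the share was 4.05 to 13.3% after nephrectomy (median 10.2) and 7.95 to 12.1% after sham surgery (median 10.1). The authors' lengths of Agtr1a and Agtr1b, 2180 and 2179 bases, were nearly equal, so length hardly enters the share. No source used here says how reads shared by these paralogs were counted, and their separate levels carry that uncertainty.

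**Figure D2:**
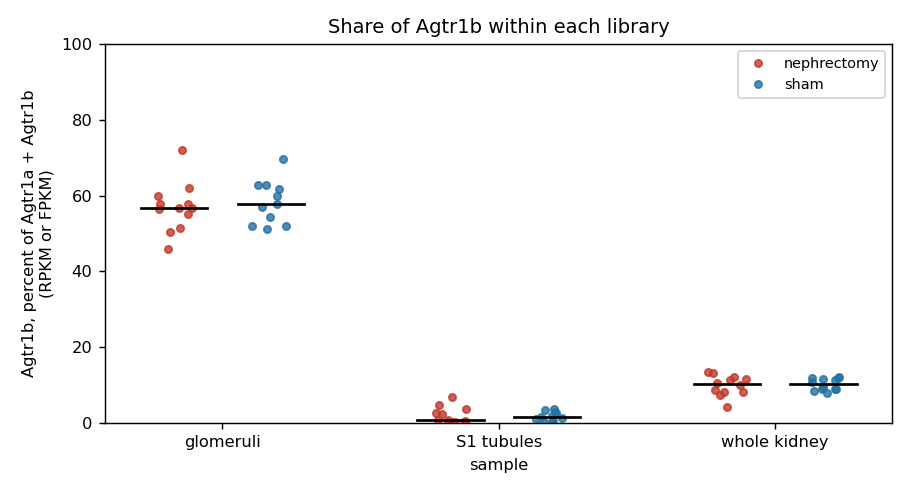
Agtr1b as a percent of Agtr1a plus Agtr1b in each library, from RPKM or FPKM, with nephrectomy left of sham and a bar at the median. The median is 56.7% after nephrectomy and 57.8% after sham surgery in glomeruli, under 2% in S1 tubules and about 10% in whole kidney for both surgeries.

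Enpep, the aminopeptidase A gene, had 101 to 308 RPKM in sham glomeruli (median 193), 18 to 47.3 RPKM in S1 tubules (median 29.9) and 19.2 to 70.2 FPKM in whole kidney (median 53). Its mean level ranked 195 among all 32545 genes in glomeruli. Mme, the neprilysin gene, had 14.1 to 52.5 RPKM in glomeruli (median 33.7) and 0.423 to 5.97 RPKM in S1 tubules (median 2.68), but 115 to 168 FPKM in whole kidney (median 155). Every whole kidney library exceeded every segment library for Mme. Markers of the later proximal tubule (S3 segment, 3 of 4 listed genes found) were also highest in whole kidney. Unlike Mme, they overlapped between glomeruli and S1 tubules. They summed to 470 to 917 FPKM in whole kidney, 1.32 to 10.8 RPKM in glomeruli and 1.8 to 12.5 RPKM in S1 tubules. Loop and distal markers were highest in whole kidney too (615 to 1517 FPKM, against 0.843 to 284 RPKM in glomeruli and 2.42 to 25.7 RPKM in S1 tubules). So were collecting duct markers (46.6 to 126 FPKM, against 3.45 to 11.6 and 6.12 to 27.3 RPKM). The part of any of these in the Mme level was not tested. Within a library Enpep had a median 6.4 times the level of Mme in sham glomeruli, 12.7 times in S1 tubules and 0.351 times in whole kidney.

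Between segments after sham surgery, 5 of the 6 genes were higher in glomeruli than in S1 tubules by edgeR's quasi-likelihood test with Benjamini-Hochberg adjustment over 24488 genes. Of all genes 39.7% passed that threshold of 0.05, and 21.1% were higher in glomeruli. On TMM-scaled counts, which adjust libraries to each other by most genes, the log2 fold change was 7.31 ± 0.41 (SE) for Agtr1b, adjusted p = 2.49e-20. It was 2.06 ± 0.34 for Ace (adjusted p = 1.15e-06), 1.90 ± 0.31 for Mme (9.87e-07), 0.81 ± 0.28 for Enpep (0.0174) and 0.74 ± 0.21 for Agtr1a (0.0037). Agt had -0.05 ± 0.66 (0.956; 95% interval -1.37 to 1.27). The median over all genes was itself 0.69. Relative to it Agtr1b was at 6.62, Ace at 1.37, Mme at 1.21, Enpep at 0.12, Agtr1a at 0.05 and Agt at -0.74, and Agtr1b ranked 25 of 24488 genes from the highest. On the RPKM scale, the same 5 genes had all sham glomerular libraries above all sham S1 libraries, as did 27.1% of all genes. The ratio of mean RPKM was then 516 for Agtr1b, 13.7 for Ace, 12.4 for Mme, 6.3 for Enpep and 5.68 for Agtr1a, larger than the 159, 4.18, 3.72, 1.75 and 1.67 of the TMM-scaled fit. RPKM totals include mitochondrial genes, which took 41.3 to 72.3% of counts in the S1 libraries and 9.87 to 22.9% in the glomerular ones. With those genes out of the total, sham means in glomeruli were 126 (Agtr1b), 4.52 (Ace), 40.1 (Mme), 247 (Enpep) and 90.3 RPKM (Agtr1a). In S1 tubules they were 0.510, 0.682, 6.80, 81.3 and 32.4 RPKM in that order. The Agtr1a call was lost when the pair at odds with its labels was kept (0.54, adjusted p = 0.0549). The Enpep call was lost, at 0.57 to 0.72, when any 1 of 11 libraries was left out of the fit over all segment libraries. These were the glomerular nephrectomy libraries numbered 1 and 2 at 24 h, 2, 3 and 4 at 48 h and 1 and 2 at 72 h, the glomerular sham libraries numbered 3 at 48 h and 1 and 3 at 72 h, and the S1 sham 24 h library numbered 4.

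Of 16 other genes of the pathway that were tested in this contrast, 2 were higher in glomeruli and 7 were lower, beside 18.6% of all genes lower. The mast cell and neutrophil protease genes Cpa3 (2.00 ± 0.62) and Ctsg (2.51 ± 0.88) were higher, and both calls were lost with that pair kept (1.02 and 1.80). Anpep, which encodes aminopeptidase N and degrades angiotensin III, had 0.938 to 5.54 RPKM in glomeruli against 110 to 249 RPKM in S1 tubules. Its log2 fold change of -7.34 ± 0.39 (adjusted p = 3.83e-21) ran opposite to that of Enpep. Ctsa (-3.24), Agtrap, the gene of a type 1 receptor-associated protein (-3.20), Atp6ap2, the prorenin receptor gene (-2.11), Nln (-1.54), Thop1 (-1.42) and Dpp3 (-0.81) were lower in glomeruli in the same fit. The Dpp3 call was lost with that pair kept (-0.65, adjusted p = 0.0739), without the S1 sham 72 h library numbered 2 (-0.65, adjusted p = 0.0733) and with RLE size factors (-0.53). On log2(RPKM + 1) in limma, Atp6ap2 was no longer called (-0.32, adjusted p = 0.133), and Nln (0.23), Thop1 (0.13) and Dpp3 (0.65) turned to the other direction.

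After nephrectomy none of the 6 genes passed edgeR's threshold at 24, 48 or 72 h or as the mean of the 3 times, in any kind of sample. In whole kidney the share of all 15678 genes called was 0.236% at 24 h, 0% at 48 h, 0.00638% at 72 h and 2.86% for the mean of the times. In S1 tubules (18372 genes tested) and glomeruli (22405) the share was 0% in all 4 comparisons. Without adjustment, 1 gene in S1 tubules at 72 h (Mme) and 1 in glomeruli for the mean of the times (Enpep) stood below 0.05 by edgeR. Over all genes, those below 0.05 without adjustment numbered 815 to 2751 in whole kidney, 134 to 2428 in S1 tubules and 206 to 649 in glomeruli. DESeq2 and limma on log2(RPKM or FPKM + 1) also called 0 of the 6 in each of these comparisons. Bulk RNA cannot tell fewer cells of a type from less RNA per cell. Of the 54 combinations of gene, time and kind of sample, 2 had all nephrectomy libraries on 1 side of all sham libraries: Agtr1b in whole kidney and Enpep in S1 tubules, both at 48 h. Of all genes 3.31%, 7.23% and 10.8% did so in whole kidney at 24, 48 and 72 h, 3.39%, 5.73% and 1.16% in S1 tubules, and 2.8%, 2.05% and 1.12% in glomeruli. Levels across time are given as CPM, each library's counts set to a common total that TMM scales within a tissue.

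In whole kidney Agt had 9.1, 8.97, 11.1 and 14 CPM 24 h after nephrectomy, against 3.91, 8.92, 6.14 and 15.1 CPM after sham surgery. At 48 h Agt had 14.4, 12.7, 12.6 and 12.2 CPM after nephrectomy, against 9.32, 9.95, 12.4 and 12.6 CPM after sham surgery. At 72 h Agt had 14.2, 19.2, 17.3 and 11.5 CPM after nephrectomy, against 7.7, 12, 8.46 and 17.8 CPM after sham surgery. The group mean was higher after nephrectomy at each time, but the groups overlapped at all 3. The mean log2 fold change of Agt was 0.33 ± 0.17 (95% interval -0.02 to 0.69), edgeR adjusted p = 0.312.

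Ace in whole kidney was spread most by single libraries. At 24 h it had 6.54, 5.83, 7.95 and 18.5 CPM after nephrectomy, against 1.77, 4.72, 8.1 and 7.54 CPM after sham surgery. At 72 h it had 7.65, 8.09, 6.02 and 6.76 CPM after nephrectomy, against 16.9, 5.58, 5.98 and 10.6 CPM after sham surgery. The highest library was thus in the nephrectomy group at 24 h and in the sham group at 72 h. The mean log2 fold change of Ace was 0.13 ± 0.24 (95% interval -0.36 to 0.62, edgeR adjusted p = 0.819), and -0.05 without the nephrectomy 24 h library numbered 4.

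The receptor genes had negative mean fold changes in whole kidney that did not pass the threshold. At 48 h Agtr1b had 2.82, 2.75, 2.58 and 2.73 CPM after nephrectomy, against 4.14, 3.74, 3.24 and 2.87 CPM after sham surgery. Here all nephrectomy libraries lay below all sham libraries, as libraries lay on 1 side for 7.23% of all genes at that time. At 24 h Agtr1b had 3.84, 4.29, 1.01 and 2.58 CPM after nephrectomy, against 5.19, 3.4, 2.83 and 3.65 CPM after sham surgery, and at 72 h both groups lay between 2.66 and 4.09 CPM, with a higher mean after nephrectomy (3.23 CPM) than after sham surgery (3.12 CPM). The Agtr1b groups overlapped at both of those times. Agtr1a ranged over 17.9 to 33.1 CPM after nephrectomy and 24.2 to 56.6 CPM after sham surgery over the 3 times, with the highest value in the sham 24 h library numbered 1. Mean log2 fold changes were -0.20 ± 0.12 for Agtr1a (95% interval -0.45 to 0.05, edgeR adjusted p = 0.411) and -0.20 ± 0.15 for Agtr1b (-0.51 to 0.10, adjusted p = 0.5).

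Enpep in whole kidney ranged over 90.1 to 203 CPM after nephrectomy and 155 to 238 CPM after sham surgery. The lowest value was in the nephrectomy 24 h library numbered 3, and the groups overlapped at each time. Its mean log2 fold change was -0.19 ± 0.11 (95% interval -0.42 to 0.03, edgeR adjusted p = 0.364).

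Mme in whole kidney depended on the 24 h libraries that stood apart. At 24 h it had 436, 450, 321 and 578 CPM after nephrectomy, against 293, 250, 662 and 694 CPM after sham surgery, in the order of replicates 1 to 4. Among replicates 1 and 2 both nephrectomy libraries were higher than both sham libraries, and among replicates 3 and 4 both were lower. That split in replicates 1 and 2 was not seen in FPKM, which is not scaled by TMM. The FPKM of Mme in them overlapped, at 140.2 and 151 FPKM after nephrectomy against 132 and 152 FPKM after sham surgery. Their TMM factors were 0.835 and 0.872 after nephrectomy against 1.17 and 1.57 after sham surgery. Totals of both measures include the mitochondrial genes. With all 8 libraries the log2 fold change was -0.09 ± 0.24 (edgeR adjusted p = 0.914). Without replicates 3 and 4 it was 0.70 (adjusted p = 0.00897), with 2 libraries in each group and 16.4% of 16122 genes called. Those libraries also differed in mitochondrial share, with 66.3 and 64.6% after nephrectomy against 49.2 and 36% after sham surgery, and in Slc5a2, with 8.36 and 8.33 FPKM after nephrectomy against 159 and 96.3 FPKM after sham surgery. The part of these in the Mme call was not tested. In that fit the Mme effect also differed between the 3 times (adjusted p = 0.0142; 11.4% of genes called). At 48 h Mme had 365, 381, 329 and 279 CPM after nephrectomy, against 407, 353, 463 and 402 CPM after sham surgery. At 72 h Mme had 390, 403, 371 and 346 CPM after nephrectomy, against 374, 348, 328 and 360 CPM after sham surgery. Both overlapped, and the mean over the times was -0.08 ± 0.14 (95% interval -0.37 to 0.21, adjusted p = 0.801), or 0.18 (adjusted p = 0.191; 4.87% of genes called) without those 24 h libraries.

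**Figure D3:**
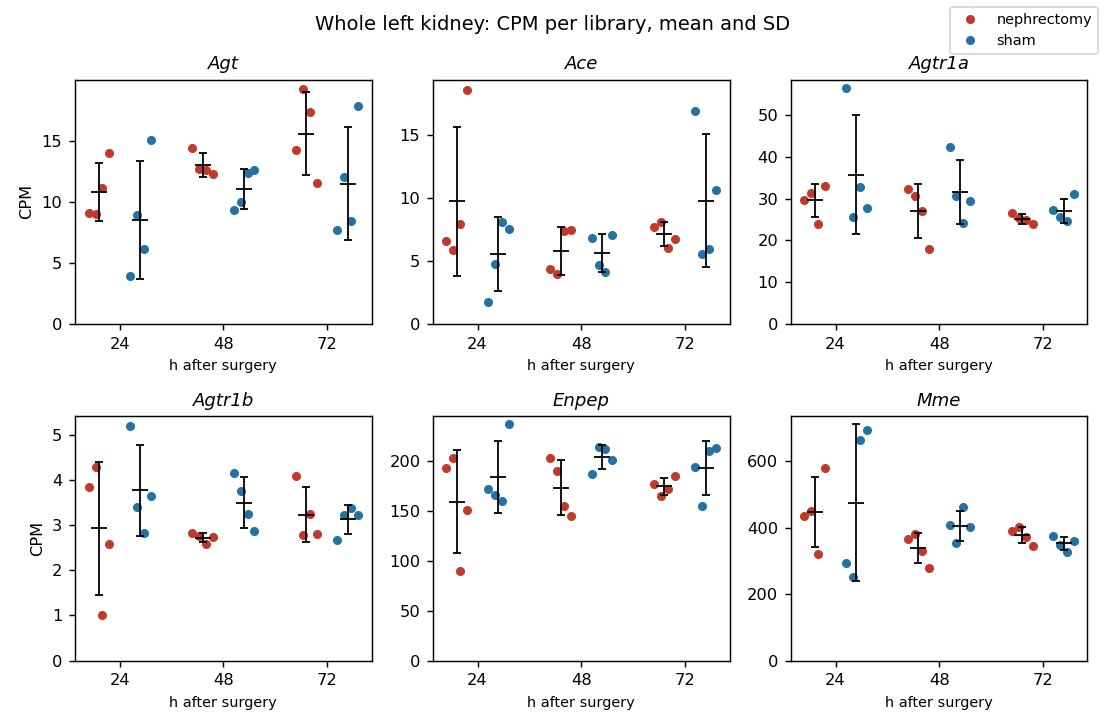
CPM of the 6 genes in whole left kidney by hours after surgery, one point per library in the order of replicates, nephrectomy (red) left of sham (blue), with the mean and SD in black. Groups overlap throughout except Agtr1b at 48 h, and Mme at 24 h splits by replicate, with sham libraries at 250 and 293 CPM and at 662 and 694 CPM.

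In glomeruli Enpep had the largest mean effect of the 6 genes in any kind of sample. At 24 h it had 864, 862, 284 and 662 CPM after nephrectomy, against 708, 464 and 358 CPM in the 3 sham libraries. At 48 h Enpep had 804, 1282, 1559 and 2023 CPM after nephrectomy, against 740.0, 871, 1139 and 1215 CPM after sham surgery. At 72 h Enpep had 1651, 1915, 428 and 912 CPM after nephrectomy, against 1082, 845, 451 and 502 CPM after sham surgery. The highest library was in the nephrectomy group each time, and the groups overlapped each time. The mean log2 fold change was 0.56 ± 0.25 (95% interval 0.05 to 1.06), with an unadjusted p of 0.0323 and an edgeR adjusted p of 1. Podocyte markers summed to 2211 to 5046 RPKM after nephrectomy and 2977 to 4680 RPKM after sham surgery, and their part in the Enpep values was not tested.

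Mme in glomeruli had 132, 86.2, 67.6 and 97.4 CPM 24 h after nephrectomy, against 75.1, 76.2 and 44.8 CPM after sham surgery. At 48 h it had 189, 232, 173 and 111 CPM after nephrectomy, against 117, 166, 68.9 and 157 CPM after sham surgery. At 72 h it had 31.7, 143, 47.4 and 43.7 CPM after nephrectomy, against 86.5, 77.2, 48.4 and 40.4 CPM after sham surgery. The 72 h group thus had 1 nephrectomy library above all sham libraries and 1 below all of them. The mean log2 fold change of Mme was 0.37 ± 0.23 (95% interval -0.11 to 0.84, edgeR adjusted p = 1).

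The receptor gene Agtr1a in glomeruli differed between 48 and 72 h in both surgeries, given here as values with no test. Agtr1a had 274, 260, 202 and 261 CPM 48 h after nephrectomy, against 182, 286, 172 and 225 CPM 48 h after sham surgery. At 72 h it had 164, 96.7, 105 and 92.9 CPM after nephrectomy, against 119, 108, 136 and 108 CPM after sham surgery. In both surgeries every 48 h library lay above every 72 h library, as was so for 1.85% of all genes. No label gives the day on which RNA or libraries were made, so time and any such day cannot be told apart. Mean log2 fold changes between surgeries were 0.02 ± 0.15 for Agtr1a (95% interval -0.29 to 0.32) and -0.09 ± 0.17 for Agtr1b (-0.44 to 0.27), each with an edgeR adjusted p of 1. Agtr1b ranged over 121 to 358 CPM after nephrectomy and 158 to 480 CPM after sham surgery.

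Ace in glomeruli ranged over 5.36 to 17 CPM after nephrectomy and 7.4 to 17.8 CPM after sham surgery, with a mean log2 fold change of -0.27 ± 0.21 (95% interval -0.70 to 0.16). Agt ranged over 0 to 1.69 CPM after nephrectomy and 0.323 to 2.05 CPM after sham surgery, with a mean of -0.34 ± 0.58 (-1.54 to 0.86). The edgeR adjusted p was 1 for both Ace and Agt. Agt had at most 36 reads in any glomerular library.

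In S1 tubules Enpep at 48 h was the one place where all nephrectomy libraries lay above all sham libraries. It had 215, 213, 195 and 255 CPM after nephrectomy, against 141, 137, 95.8 and 172 CPM after sham surgery. At that time 5.73% of all genes had the groups on either side of each other, and Enpep was not called there (edgeR adjusted p = 1). At 24 h Enpep had 146, 154, 66.3 and 61 CPM after nephrectomy, against 137, 87.4 and 71.3 CPM after sham surgery. At 72 h it had 252, 95.9, 139 and 92.4 CPM after nephrectomy, against 149, 200, 72.2 and 136 CPM after sham surgery. At the earliest and latest times the Enpep groups overlapped, and the mean log2 fold change was 0.29 ± 0.22 (95% interval -0.16 to 0.73, adjusted p = 1).

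Mme and Ace in S1 tubules were both highest in the same nephrectomy library at 72 h. Mme had 14.2, 31.5, 12.6 and 8.27 CPM at 72 h after nephrectomy, against 9.04, 6.84, 2.3 and 12.2 CPM after sham surgery. Ace had 1.09, 4.93, 1.46 and 0.521 CPM there after nephrectomy, against 1.4, 0.62, 0.409 and 0.329 CPM after sham surgery. The highest value of both was that of replicate 2. That library also had the highest sum of podocyte markers among the 23 S1 libraries (19.2 RPKM) and the lowest sum of proximal tubule markers (569 RPKM). The mean log2 fold change of Mme was 0.53 ± 0.31 (95% interval -0.11 to 1.16) and 0.36 without that library. That of Ace was 0.25 ± 0.46 (-0.69 to 1.20) and -0.06 without it. Both had an edgeR adjusted p of 1 with it.

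Agtr1a in S1 tubules ranged over 16.8 to 46.2 CPM after nephrectomy and 17.7 to 40.6 CPM after sham surgery. Its mean log2 fold change was 0.05 ± 0.19 (95% interval -0.33 to 0.43, edgeR adjusted p = 1). Agtr1b, at 0 to 1.39 CPM after nephrectomy and 0.0623 to 0.96 CPM after sham surgery, gave -0.24 ± 0.63 (-1.53 to 1.06). Its highest value, from 11 reads, was in the nephrectomy 72 h library numbered 2, which had the highest podocyte marker sum. Agt, at 0 to 1.01 CPM after nephrectomy and 0 to 1.12 CPM after sham surgery, gave -0.09 ± 0.67 (-1.47 to 1.30). For Agtr1b and Agt the interval spans more than a doubling in either direction, so that changes of that size were not detectable at this depth.

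**Figure D4:**
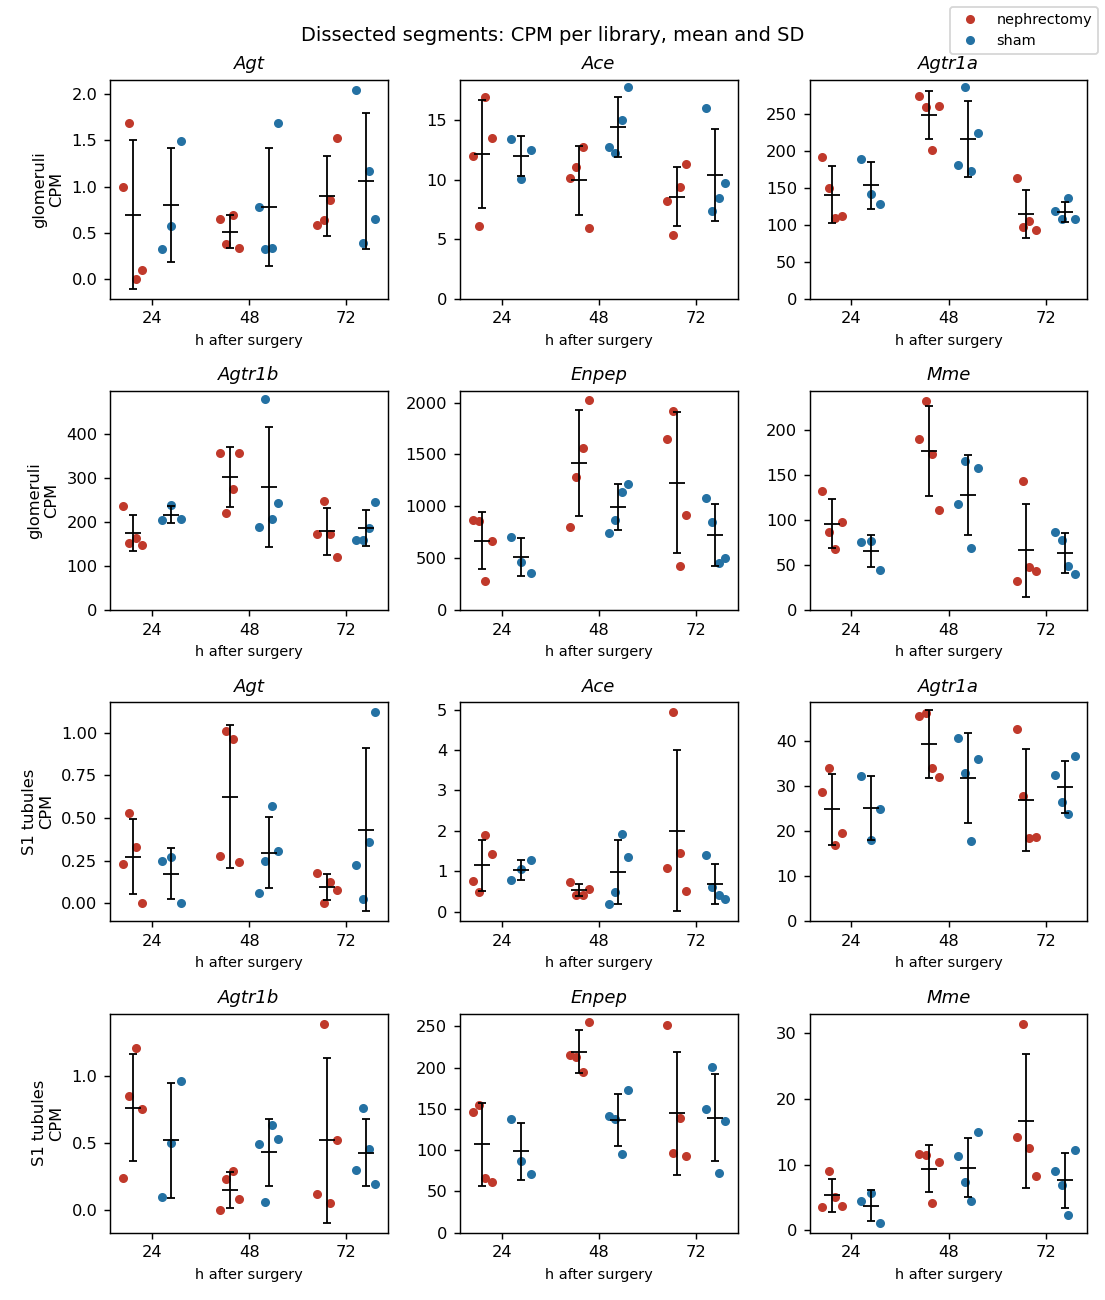
CPM of the 6 genes in glomeruli (upper panels) and S1 tubules (lower panels) by hours after surgery, one point per library, nephrectomy (red) left of sham (blue), with the mean and SD in black. Enpep at 48 h in S1 tubules has nephrectomy libraries at 195 to 255 CPM above sham libraries at 95.8 to 172 CPM, and the S1 libraries of Ace and Mme at 72 h include 1 high nephrectomy value each, at 4.93 and 31.5 CPM.

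The mean nephrectomy effect was also compared between the segments. The difference, glomeruli minus S1 tubules, was between -0.38 (Ace) and 0.31 (Agtr1b) on the log2 scale, and none of the 6 passed the threshold (edgeR adjusted p of 1 for each, lowest unadjusted p 0.398). Over all 24488 genes 0% were called, with 622 at an unadjusted p under 0.05 and 0 called by DESeq2. The effect did not pass the test for a difference between times for any of the 6 genes in whole kidney, S1 tubules or glomeruli with all libraries, where the lowest edgeR adjusted p was 0.794 (S1 tubules). Of all genes that test called 0.0191% in whole kidney, 0.0109% in S1 tubules and 0.00446% in glomeruli.

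**Figure D5:**
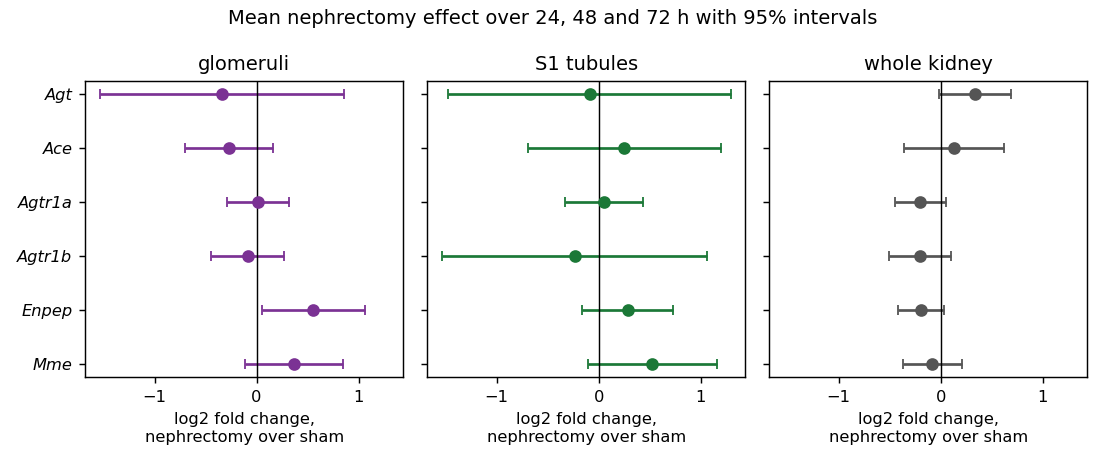
Mean log2 fold change of nephrectomy over sham across 24, 48 and 72 h with its 95% interval, per gene and kind of sample, from edgeR. Only the interval of Enpep in glomeruli (0.05 to 1.06) leaves out 0, and its adjusted p is 1.

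As a list, the 6 genes were described beside all genes tested. In whole kidney the median of their mean log2 fold changes was -0.14, against -0.01 over all genes tested, with 2 of the 6 above 0. In S1 tubules their median was 0.15 against 0.03, with 4 above 0, and in glomeruli -0.04 against -0.00, with 3 above 0. The other genes of the pathway gave no call after nephrectomy: 0 of 12 tested in whole kidney, 0 of 13 in S1 tubules and 0 of 15 in glomeruli passed the threshold for the mean of the times. For that mean, Ctsa, Thop1 and Nln stood at an unadjusted p under 0.05 by edgeR in whole kidney, with a lowest adjusted p of 0.119. At 24 h alone Atp6ap2, Ctsa, Thop1 and Agtrap did so there, with a lowest edgeR adjusted p of 0.0725. Atp6ap2 then had 76.2 ± 6.06 CPM after nephrectomy and 98 ± 30 CPM after sham surgery (SD, n = 4 each). Over the 3 times Atp6ap2 in whole kidney had 33.4 ± 6.67 FPKM after nephrectomy and 36.9 ± 14.4 FPKM after sham surgery (SD, n = 12 each; edgeR adjusted p = 0.518).

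Across the 20 whole kidney libraries other than those apart, the genes most like each member in log2 CPM were named by Pearson's r among 9366 or 9367 candidates, as a description. Agtr1a varied most closely with Ankrd46 (r = 0.92) and Dnajc19 (0.88), and Agtr1b with Gmpr2 (0.85) and Arl13b (0.84). Agt varied with Large (0.87) and Smg9 (0.82), and Ace with Panx2 (0.84) and Myo1d (0.80). Enpep varied with Ttc1 (0.80) and Nmt1 (0.79), and Mme with the mitochondrial gene Mt-cox3 (0.90) and Stk39 (0.89). With all 24 libraries these r were 0.45 to 0.95. These libraries share a preparation and differ in depth and mitochondrial share, and both groups of surgery are included.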

How the data were processed

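Whole-number read counts per gene were deposited by the authors, and the submitters' processing notes name HTSeq, SAMtools, STAR 2.4.0.1 and Trimmomatic 0.32. Genome build, annotation, strand use and treatment of multiply placed reads: not given in the sources used here. The authors also deposited RPKM (segments) and FPKM (whole kidney), per the file headers. Both were checked to equal the counts per gene total and a constant length per gene. HTSeq summary rows were left out.

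In R 4.3.3, edgeR 4.0.16 (TMM, filterByExpr with a minimum count of 10, quasi-likelihood F test) was fitted to all libraries of a tissue with a mean per group of surgery and time, and to the 46 segment libraries together for contrasts between segments. p-values were adjusted by Benjamini-Hochberg over all genes tested, with a threshold of 0.05. SE is the log2 fold change over the square root of F. Alternatives were DESeq2 1.42.0, limma 3.58.1 on log2(RPKM or FPKM + 1 or + 0.1), RLE factors, no filter, a replicate block, 1 time alone, left-out libraries and, added after seeing the data, counts without the 37 mitochondrial genes. The edgeR fit of whole kidney was tested on simulated data for the mean of the times only, and the segment fits were not. No 2 of the 108 library pairs within groups were copies (smallest chi-square per degree of freedom 5.99).

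The 6 genes, the list of 18 other pathway genes (17 found; Klk1 not under that symbol) and the markers were chosen with earlier results of these data known. Named were the 6 members, Atp6ap2, listed genes past the threshold and the 2 genes most like each member. Names given beyond that rule (Ctsa, Thop1, Nln and Agtrap at an unadjusted p) were chosen after their values were seen. Results of other listed genes are not reported here. The sources name no molecular identifiers, so amplified copies of 1 fragment may be counted more than once.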

Additional observations from a re-analysis of the deposited data

Results flagged for a closer look

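Among 96 groups of 4 libraries tested over the 6 genes, 3 held a library farther from the others than Dixon's 95% limit allows, and chance alone flags about 1 in 20 groups. Ace had 18.5 CPM in the whole kidney nephrectomy 24 h library numbered 4, against 5.83 to 7.95 CPM in the other 3. Enpep had 237.7 CPM in the whole kidney sham 24 h library numbered 4, against 161 to 173 CPM in the others. Both are among the 24 h libraries with a high mitochondrial share, and the part of that share in these values was not tested. Mme had 143.0 CPM in the glomerular nephrectomy 72 h library numbered 2, against 31.7 to 47.4 CPM in the others.

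In the library labelled S1 tubules, sham 24 h, replicate 2, 4 of the genes were above all 23 other S1 libraries. Its markers went against its label, and it entered no comparison. How many of all genes lay above the other S1 libraries was not counted. Agtr1a had 114 RPKM there, against 6.15 to 21.3 RPKM in the others, and Agtr1b had 109.9 RPKM, against 0 to 0.659 RPKM. Enpep had 142 RPKM, against 17.7 to 73.3 RPKM, and Mme had 32.0 RPKM, against 0.423 to 12.2 RPKM. Of these values, those of Agtr1b, Enpep and Mme lay within the glomerular ranges (55.1 to 181, 77 to 505 and 14.1 to 77.4 RPKM). That of Agtr1a lay above its range (39.2 to 108 RPKM). In the library labelled glomeruli of the same group Agtr1b had 0.133 RPKM, against 55.1 to 181 RPKM in the other 23, and Agtr1a 12.9 RPKM, against 39.2 to 108 RPKM. Ace (0.237 RPKM), Enpep (58.4 RPKM) and Mme (4.61 RPKM) were also below all 23 there.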

How the results depend on the processing

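In the comparisons of nephrectomy the count of the 6 genes called was 0 under every setting and left-out library, except in whole kidney without the 24 h libraries numbered 3 and 4, where it was 1 at 24 h and 1 for the difference between times, Mme in both. Between segments after sham surgery the count was 5, against 6 with limma, 4 with the sham 24 h pair numbered 2 (Agtr1a lost) and 4 to 5 with 1 library left out (Enpep lost in 11 of 46 fits). Mme in whole kidney at 24 h then turned to 0.70, against 0.035 with the replicate block and -0.31 to 0.15 with 1 library left out, and its mean over the times to 0.18. Leaving 1 library out also turned uncalled means: Ace in whole kidney (-0.053 to 0.25) and S1 tubules (-0.058 to 0.44), Agtr1a in S1 tubules (-0.098 to 0.12) and glomeruli (-0.059 to 0.12), Agtr1b in S1 tubules (-0.63 to 0.0018) and glomeruli (-0.18 to 0.082), and Agt in S1 tubules (-0.25 to 0.26). It turned Agt between the segments (-0.33 to 0.26) and the difference of the effect for Agtr1a (-0.14 to 0.20) and Mme (-0.20 to 0.22). With limma on log2(RPKM or FPKM + 1) and + 0.1, Agt in S1 tubules turned to 0.016 and 0.025, Agtr1a in glomeruli to -0.072 and -0.074, the difference for Agtr1b to -0.17 and -0.075, and Agtr1b in S1 tubules to 0.012 with the first. Between segments limma gave Agt 0.33 and 1.13, Dpp3 0.65 and 0.91, Thop1 0.13 and 0.21, and Nln 0.23 and 0.26. Agt between segments was 0.22 with RLE size factors, 0.22 with DESeq2, 0.0083 without a count filter and 0.18 with the sham 24 h pair numbered 2. That pair gave Agtr1a -0.12 in S1 tubules, and differences of 0.19 for Agtr1a and 0.36 for Mme. The cause was not tested.

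Same-numbered libraries deviated together in some pairs only: 6 of 12 in whole kidney, 5 of 11 in S1 tubules, 2 of 11 in glomeruli and 12 of 23 in the joint segment fit had a correlation over 0.1, and 8 of 24, 7 of 22, 5 of 22 and 22 of 46 libraries correlated best with their own number. Each library had up to 4 candidates at its time, from the other surgery or, in the joint fit, the other segment. The numbers were not taken to pair the samples, so the fit between segments treated its 46 libraries as unpaired. With the replicate block no call of the 6 genes changed, while Dpp3 (-0.78, adjusted p = 0.0721) and Ctsg (2.70, adjusted p = 0.0574) were no longer called between segments. Agtr1a turned to -0.020 in S1 tubules, -0.0090 in glomeruli and 0.017 for the difference, and Agt between segments to 0.12, while genes called at 24 h in whole kidney numbered 124 against 37.

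With the mitochondrial genome taken out of the total, sham means became 0.405 (Agt), 0.682 (Ace), 32.4 (Agtr1a), 0.510 (Agtr1b), 81.3 (Enpep) and 6.80 RPKM (Mme) in S1 tubules. In whole kidney they became 12.8, 5.02, 34.3, 3.77, 121.9 and 375 FPKM, in the same order of genes. In glomeruli they moved by less than 1 SD.

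Genes called over the whole table depended on the setting. In whole kidney at 24 h there were 37, against 300 with DESeq2, 56 without a filter, 0 and 1 with limma, 0 with that time's libraries alone and 2645 without the libraries numbered 3 and 4. For the mean of the times there were 448, against 847 with DESeq2, 0 with limma and 785 without those libraries. At 48 h there were 0, against 166 with DESeq2. With 1 library left out these counts were 1 to 364 at 24 h (lowest without nephrectomy 24 h number 2 or 3, highest without sham 24 h number 3), 0 to 151 at 48 h (highest without nephrectomy 48 h number 2) and 242 to 1068 for the mean (lowest without sham 72 h number 2, highest without sham 24 h number 2). At 72 h there was 1, against 7 with DESeq2 and 281 with that time's libraries alone. In S1 tubules at 72 h there were 0, against 706 with DESeq2. Between segments there were 9721, against 20714 and 21223 with limma.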
